A study of Mus musculus with 11 samples.

Results

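Nuclear receptors of the colon epithelium, AHR, AHRR and the enzyme HSD11B2 were examined as 10 genes. These were found by matching gene identifiers to symbols: Nr1i2 (PXR), Nr1h4 (FXR), Vdr, Ahr, Ahrr, Hnf4a, Hnf4g, Nr5a2 (LRH-1), Nr3c2 (the mineralocorticoid receptor) and Hsd11b2. All 10 were among the 22836 genes of the table, and all 10 were among the 16781 genes that had a mean of at least 10 normalized counts and were tested. RNA of a 1 cm piece of whole colon was sequenced from mice of about 10 months in 3 groups. Control littermates (3 libraries) carried the floxed gene of the mitochondrial transcription factor TFAM, Tfam fl/fl, without Cre. Tfam fl/fl Cd4 Cre mice that received no cells, called non-transferred (3 libraries), lacked Tfam in CD4 and CD8 T cells, since Cd4 drives Cre in T cell precursors, and their epithelium kept the gene. Transferred mice (5 libraries) had the same Tfam fl/fl Cd4 Cre genotype and had received 6000000 to 7000000 CD4 T cells of 7-week-old Ly5.1 donors, besides the T cells of their own that they still had. The study gave these cells before the phase of acute weight loss. No animal was followed over time, so the words after transfer below mean transferred against non-transferred colon. The labels do not identify the animals, and the study's methods describe a data point as an individual biological sample. Libraries of 1 group differed far beyond counting error (chi-square of the counts per gene 21.9 to 110.5), and p-values here speak of that spread among libraries.

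Nuclear receptors are proteins that bind small lipophilic molecules and act on the genes next to their binding sites. In the gut PXR senses xenobiotics and bacterial indoles, FXR senses bile acids, VDR binds active vitamin D and also the bile acid lithocholate, and LRH-1 drives crypt renewal and local steroid synthesis. HNF4α and HNF4γ hold the enterocyte programme without a classic switching ligand. AHR is not a nuclear receptor but a bHLH-PAS protein that binds dietary and microbial indoles, and AHRR competes with it. In the distal colon the mineralocorticoid receptor binds aldosterone and raises sodium uptake, and HSD11B2 shields it by turning active glucocorticoid into its inert form.

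Library depth was even, with 18214741 to 19178986 reads in genes. Tfam itself had 977 to 1083 normalized counts in control libraries, 1040.3 to 1102 in non-transferred and 865 to 1091 in transferred libraries, and the groups overlapped (log2 fold change 0.06 between non-transferred and control colon, adjusted p = 0.678, limma). Among the transferred libraries, library 5 stood apart from libraries 1, 3 and 4 (chi-square of the counts per gene 90.2 to 110.5, against 21.9 to 50.3 among libraries 1 to 4). Of 16 epithelial markers, 3 were higher and 1 lower in non-transferred than in control colon, and their mean log2 value was 13.88 to 14.11 in control, 14.02 to 14.31 in non-transferred and 13.83 to 14.28 in transferred libraries. Markers of mature colonocytes moved far more: 7 of 12 were lower and 3 higher in non-transferred colon, with a mean log2 value of 12.82 to 13.41 in control, 10.93 to 12.02 in non-transferred and 12.15 to 13.51 in transferred libraries. All 12 smooth muscle markers were lower (median log2 fold change -2.60), 11 of 12 T cell markers were higher (median 2.48), and the 3 distal colon position genes measured, Hoxd10, Hoxd11 and Hoxa13, were lower. Neutrophil markers shifted most, with all 8 tested of 9 higher (median 5.82) and a summed level of 23.9 to 31.97 normalized counts in control, 1759 to 5415 in non-transferred and 39.2 to 293 in transferred libraries, and 6 of the 9 were at 0 in at least 1 library. Of 10 macrophage markers 7 were higher and 1 lower. The share of reads from mitochondrially encoded genes was 4.63% to 6.73% in control, 2.55% to 3.44% in non-transferred and 3.84% to 4.82% in transferred colon. The part of these shifts in tissue makeup or of the sampled position in the results that follow was not tested, and in bulk tissue fewer cells of a type and less RNA per cell cannot be told apart.

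In the colon of non-transferred mice, Vdr fell against control and Nr1h4 and Nr5a2 rose, while the other 7 genes did not pass the test. In transferred colon Vdr lay above non-transferred colon and overlapped control, while Nr1h4 lay above control. For Nr1h4 no difference between transferred and non-transferred colon passed the test. Of the 10 genes, 2 were called higher and 1 lower between non-transferred and control colon (limma, adjusted p under 0.05 over all genes tested), where 22.7% of all genes tested were called higher and 22.9% lower. The groups did not overlap for 2 genes that were higher and 2 that were lower, against 29% and 27.9% of all genes. Between transferred and non-transferred colon 1 gene was called higher and 0 lower, against 17% and 14.2% of all genes, and the groups did not overlap for 1 higher gene, against 17.6% of all genes that were higher and 16.6% that were lower without overlap. Between transferred and control colon 1 gene was called higher and 0 lower, against 1.14% and 0.453% of all genes, and 1 was higher without overlap, against 6.09% (5.49% lower). With the threshold that the study applied (p under 0.05 without adjustment, and a size of at least 0.6 on the log2 scale), 2 genes were higher and 1 lower in the first comparison, 1 higher in the second and 2 higher in the third, where 35.8%, 24% and 9.91% of all genes passed in either direction. The shares of members called are thus near or below the background in the first pair of comparisons, and the median size of the log2 fold change was 0.33 for the 10 genes against 0.44 for all genes between non-transferred and control colon. The corresponding values were 0.16 against 0.31 between transferred and non-transferred colon, and 0.10 against 0.20 between transferred and control colon.

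**Figure D1:**
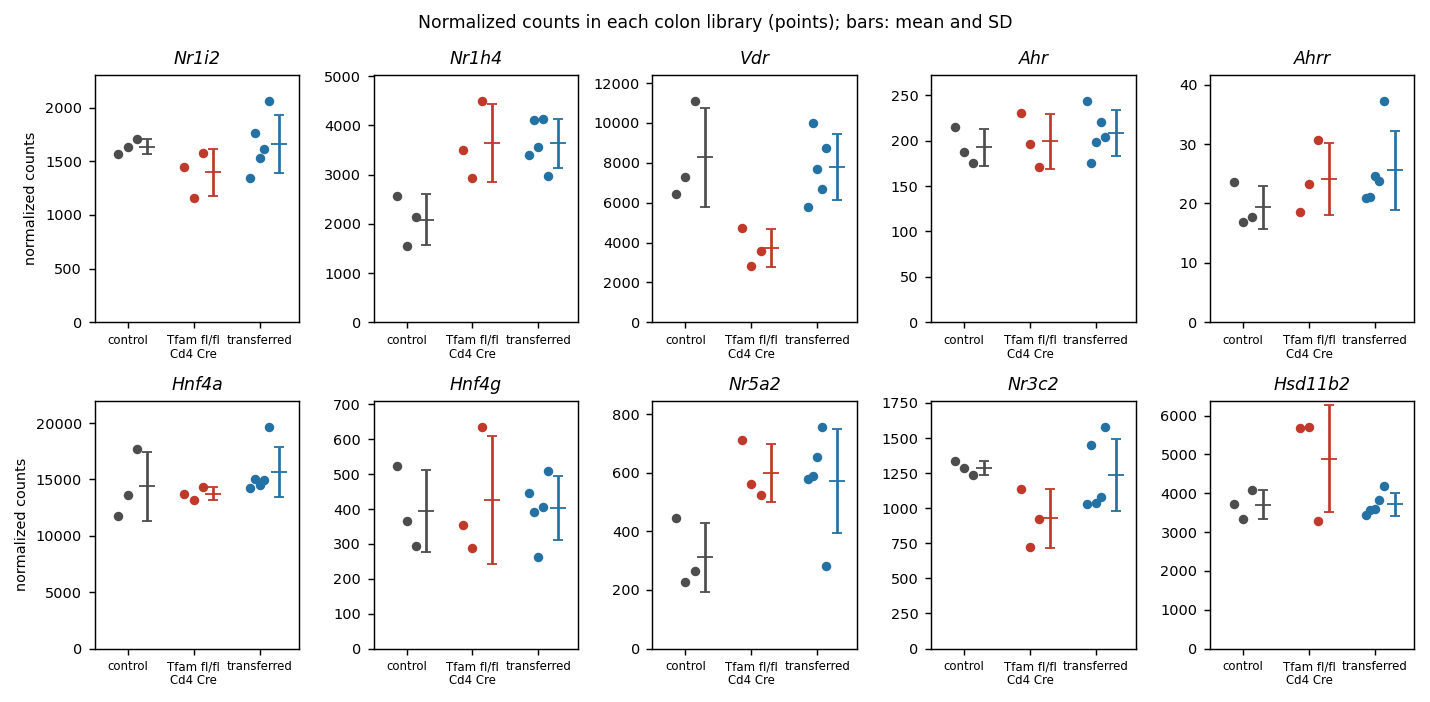
Normalized counts of the 10 genes in each of the 11 colon libraries (points; y axis from 0) by group, with the group mean and SD drawn beside them. Vdr is lower in the 3 non-transferred libraries than in all others, and Nr1h4 is higher in all non-transferred and transferred libraries than in the 3 control libraries.

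**Figure D2:**
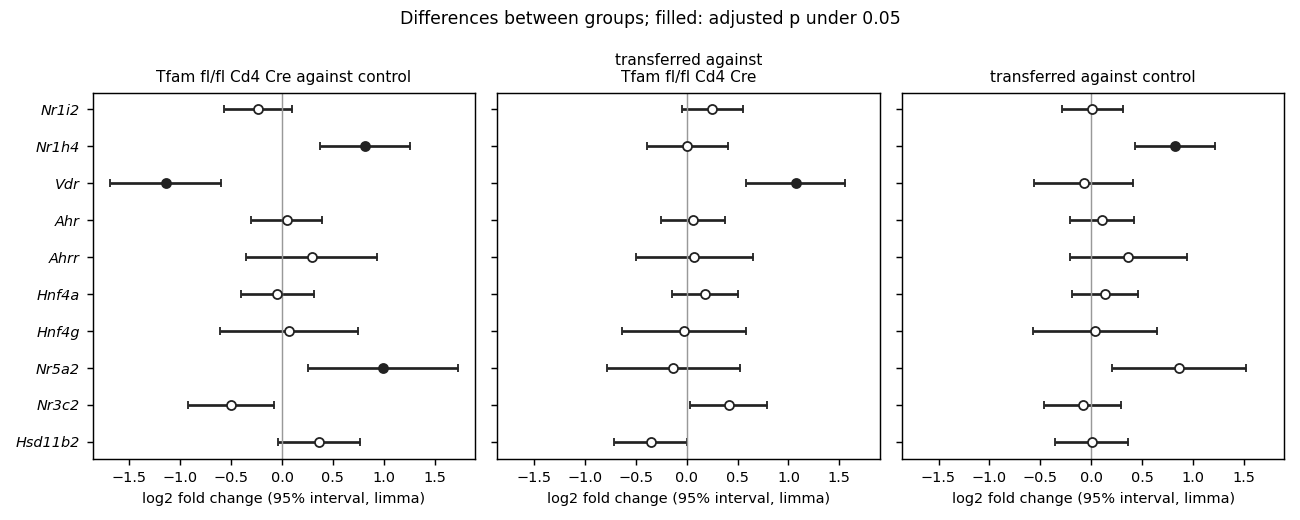
Log2 fold change of each gene in the 3 comparisons on the x axis, with 95% intervals from limma; filled points have an adjusted p under 0.05. Vdr, Nr1h4 and Nr5a2 are filled in the first panel, Vdr in the second and Nr1h4 in the third.

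Promoter sequences are shown for the 3 genes that passed the test and for Ahrr, whose gene is a known AHR target. They run from 250 bases before to 50 bases after a RefSeq start site (RefSeq, GRCm38.p6). Each matched its own chromosome of GRCm39 once on the strand given, and other chromosomes were not searched. RefSeq sequences of this kind were used for 7 of the 10 genes, which gave 9 promoters. Capitals mark matches, on either strand, to AGGTCA (the half-site of many nuclear receptors), to GCGTG (the core bound by AHR with ARNT), or to AAGGTCA (LRH-1, which contains the half-site), CAAAGTC (HNF4), TTTATNG (CDX), TGANTCA (AP-1) and TTCNNNGAA (STAT). Of the 32851 RefSeq promoters of this length, 16.3% held AGGTCA, 32.4% GCGTG, 4.72% AAGGTCA, 4.44% CAAAGTC, 10.9% TTTATNG, 7.81% TGANTCA and 8.3% TTCNNNGAA. Among the 9 promoters, 2 held the half-site, 4 the AHR-ARNT core, and none the other 5 motifs.
Vdr, chr15:97806128-97806427, minus strand, inside the annotated gene: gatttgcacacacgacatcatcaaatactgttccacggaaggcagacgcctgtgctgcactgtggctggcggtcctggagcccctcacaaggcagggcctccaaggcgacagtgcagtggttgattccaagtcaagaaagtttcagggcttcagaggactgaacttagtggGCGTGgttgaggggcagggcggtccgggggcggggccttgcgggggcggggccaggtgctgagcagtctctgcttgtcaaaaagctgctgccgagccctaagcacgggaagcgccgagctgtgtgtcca
Nr1h4, chr10:89342471-89342770, minus strand, inside the annotated gene: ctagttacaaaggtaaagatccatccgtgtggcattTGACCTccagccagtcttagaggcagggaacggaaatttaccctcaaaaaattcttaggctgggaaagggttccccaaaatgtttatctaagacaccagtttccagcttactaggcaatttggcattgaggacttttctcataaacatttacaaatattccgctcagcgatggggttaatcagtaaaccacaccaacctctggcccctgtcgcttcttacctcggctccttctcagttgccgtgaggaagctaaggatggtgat
Nr5a2, downstream start, chr1:136881319-136881618, minus strand: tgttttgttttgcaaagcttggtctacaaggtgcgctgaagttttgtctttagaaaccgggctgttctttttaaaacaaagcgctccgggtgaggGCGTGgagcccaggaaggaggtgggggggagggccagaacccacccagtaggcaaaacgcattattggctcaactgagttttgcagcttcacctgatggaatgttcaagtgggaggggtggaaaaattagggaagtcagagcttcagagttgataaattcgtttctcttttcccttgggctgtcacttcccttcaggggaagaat
Nr5a2, upstream start, chr1:136888137-136888436, minus strand, at the gene's 5′ end: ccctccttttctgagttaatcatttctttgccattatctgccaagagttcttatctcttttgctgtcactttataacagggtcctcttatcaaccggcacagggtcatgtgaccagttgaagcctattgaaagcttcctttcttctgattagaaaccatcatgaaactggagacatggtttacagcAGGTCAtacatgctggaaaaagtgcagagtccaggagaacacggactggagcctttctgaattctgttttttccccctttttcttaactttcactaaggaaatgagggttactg
Ahrr, chr13:74440401-74440700, minus strand, at the gene's 5′ end: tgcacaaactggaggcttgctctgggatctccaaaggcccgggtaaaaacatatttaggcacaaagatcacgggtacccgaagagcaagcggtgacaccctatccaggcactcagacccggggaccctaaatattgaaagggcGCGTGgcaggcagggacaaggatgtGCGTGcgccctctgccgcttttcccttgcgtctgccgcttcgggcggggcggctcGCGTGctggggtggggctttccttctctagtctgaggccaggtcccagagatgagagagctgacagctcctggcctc
The Vdr promoter held 1 AHR-ARNT core 79 bases before the start, and no nuclear receptor half-site. In Nr1h4 the half-site lay on the opposite strand, 214 bases before the start. The Nr5a2 promoters differed, with an AHR-ARNT core 155 bases before the downstream start and a half-site 64 bases before the upstream start. Ahrr was the promoter with the most matches, 3 AHR-ARNT cores at 107, 82 and 27 bases before its start. The Nr3c2 promoter (chr8:77628708-77629007, plus strand) held 1 such core, and those of Hnf4a and Nr1i2 held none of the motifs. These matches describe letters in the windows shown and not bound sites.

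RNA levels were compared between genes per kilobase of exon, with all annotated exons of a gene merged. A gene with many annotated exons that are not used thus gets a lower value. In control colon Hnf4a was the highest, at 2856 ± 601 normalized counts per kilobase (SD, n = 3), followed by Hsd11b2 (1997 ± 196) and Vdr (1441 ± 432), which overlapped each other. Nr1i2 (605 ± 25.9), Nr1h4 (430 ± 106), Nr3c2 (151 ± 5.92) and Hnf4g (89.9 ± 26.6) came next without overlap between neighbours. Nr5a2 (36.1 ± 13.6) and Ahr (31.2 ± 3.26) overlapped, and Ahrr was the lowest at 2.05 ± 0.385 normalized counts per kilobase. In non-transferred colon the order was another: Nr1h4 (751 ± 162 per kilobase, n = 3) stood above Vdr (647 ± 164) and Nr1i2 (517 ± 79.5), with neighbours overlapping, and Hnf4a (2727 ± 117) overlapped Hsd11b2 (2632 ± 744). Transferred colon had Vdr (1355 ± 287, n = 5) in the 3rd place, as in control, above Nr1h4 (749 ± 101), without overlap between them. On this measure the RNA of Hnf4a and Hnf4g differed widely in level, and that of Ahr lay far under those of Nr1i2, Nr1h4 and Vdr.

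Vdr, the vitamin D receptor gene (chr15:97752306-97808511, minus strand, GRCm39), had 6457, 7269.7 and 11098 normalized counts in the 3 control libraries. Non-transferred libraries held 4715, 2840.4 and 3598, all below the lowest control library. The 5 transferred libraries held 5797, 9975, 7692, 6692 and 8738, all above the highest non-transferred library and overlapping the control libraries. The log2 fold change was -1.14 between non-transferred and control colon (standard error 0.25, adjusted p = 0.00323, limma), 1.07 between transferred and non-transferred colon (standard error 0.22, adjusted p = 0.00462, limma) and -0.07 between transferred and control colon, where the 95% interval ran from -0.56 to 0.41 (adjusted p = 0.883, limma). Without transferred library 5 and in each other fit that left out 1 library, the first and second differences stayed called. The colonocyte markers were low in the same 3 libraries, and non-transferred library 3 had the lowest level of both, 2840.4 normalized counts of Vdr and a mean log2 value of 10.93 for the markers. Non-transferred libraries 3, 4 and 1 and transferred library 1 were the lowest in both and in the same order (markers 10.93, 11.95, 12.02 and 12.15). Control library 3, with markers at 13.41, had the most Vdr. Elsewhere the order differed in part. Transferred library 5, with the highest markers (13.51), had less Vdr than control library 3 and transferred library 2 (12.89). Transferred library 3, with markers at 12.18, had more Vdr than control libraries 1 and 2 (12.82 and 12.96). When each library was scaled to those markers instead, Vdr differed by 0.28 between non-transferred and control colon (adjusted p = 0.548, limma). That scaling put the median of all genes at 1.44. Relative to the median Vdr was at -1.16 with and without the scaling, which shifts all genes of a library alike. The relative value therefore cannot show what part colonocyte content has. The part of mature colonocyte content in the Vdr difference was not tested.

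The genes of vitamin D action that were listed as VDR targets did not move one way. Of 12, 8 were tested, of which 3 were higher and 3 lower in non-transferred than in control colon, with a median log2 fold change of -1.92 against 0.02 over all genes. This count and those of the other lists in this comparison stand against 22.7% of all genes called higher and 22.9% called lower. Slc37a2, a sugar phosphate exchanger, had 5323, 12923 and 24998 normalized counts in control and 76.4, 72.7 and 53.7 in non-transferred libraries (log2 fold change -7.47, adjusted p = 0.00491, limma). Its transferred libraries ran from 36.4 to 27551, the latter in library 5, so transferred colon held both the level of non-transferred and that of control colon. Atp2b1, the basolateral calcium pump, fell by 1.59 on the log2 scale (adjusted p = 0.00228, limma) and rose by 1.43 after transfer (adjusted p = 0.00411, limma). Mature colonocyte markers were low in the same non-transferred libraries, and their part in the falls of Slc37a2 and Atp2b1 was not tested. Higher in non-transferred colon were Cldn2, a claudin that makes paracellular cation pores (log2 fold change 2.10, adjusted p = 0.00127, limma), and Cebpb, a transcription factor of inflammation (1.33, adjusted p = 0.000717, limma). Neutrophil and macrophage markers rose in the same libraries, and their part in the rise of Cebpb was not tested. Trpv6, the apical calcium channel, had 10.4 to 66.2 normalized counts in control and 0 to 5.87 in non-transferred libraries, with a log2 fold change of -3.39 that did not pass (adjusted p = 0.125, limma). Cyp24a1, the enzyme that breaks down active vitamin D and the most direct VDR target, was under the filter, with 0 or about 1 read in all libraries but transferred library 2 (10.1 normalized counts), and was not tested.

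Nr1h4, the gene of the bile acid receptor FXR (chr10:89289742-89369497, minus strand), had 2569, 1548 and 2143 normalized counts in control libraries. It had 3496, 2937 and 4493 in non-transferred and 3392, 4107, 3563, 4125 and 2978 in transferred libraries. Every library of the Tfam fl/fl Cd4 Cre genotype, transferred or not, lay above the highest control library. The log2 fold change was 0.81 between non-transferred and control colon (standard error 0.20, adjusted p = 0.00662, limma) and 0.82 between transferred and control colon (standard error 0.18, adjusted p = 0.0483, limma). Between transferred and non-transferred colon it was 0.01 with a 95% interval from -0.39 to 0.40 (adjusted p = 0.979, limma). The first call held in all 24 alternatives, at 0.61 to 2.24, among them fits without a transferred library, which leave this fold change as it was. The call between transferred and control colon held in 11 of 24: it was lost with edgeR (adjusted p = 0.0617) and with the libraries scaled to epithelial markers (adjusted p = 0.0945, limma), held with DESeq2 (adjusted p = 0.00259), and fell furthest without control library 2, the library with the lowest Nr1h4 (log2 fold change 0.62, adjusted p = 0.253, limma).

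Genes of bile acid transport and FXR action were mixed in direction. Of 12 listed genes 7 were tested, of which 2 were higher and 4 lower in non-transferred than in control colon (median log2 fold change -0.99). After transfer 3 were higher and 1 lower, against 17% and 14.2% of all genes. None was called between transferred and control colon, against 1.14% of all genes higher and 0.453% lower. The basolateral exporter of bile acids is made of 2 subunits that moved apart: Slc51a (OSTα) fell by 1.18 on the log2 scale (adjusted p = 0.0136, limma), and Slc51b (OSTβ) rose by 0.85 (adjusted p = 0.0201, limma). Slc10a2, the apical bile acid importer, fell by 1.35 (adjusted p = 0.00041, limma) and rose by 1.32 after transfer (adjusted p = 0.000642, limma). Abcc3, an exporter of conjugates, and Ugt2b34, a glucuronidation enzyme, fell by 0.99 and 1.01, while Abcc4, another exporter, rose by 1.08 (adjusted p = 0.00585, 0.00313 and 0.00206, limma). Mature colonocyte markers fell in the same non-transferred libraries, and their part in the falls of these genes was not tested. Fgf15, the hormone that FXR induces in ileum, averaged at most 3.04 normalized counts in any group and was not tested. Slc10a2 of transferred colon, at 2061 ± 329 normalized counts (SD, n = 5), lay beside 2156 ± 686 in control colon (n = 3) (log2 fold change -0.03, adjusted p = 0.942, limma).

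Nr5a2, the gene of LRH-1 (chr1:136770303-136888186, minus strand), had 446, 226 and 265 normalized counts in control libraries and 713, 563 and 526 in non-transferred libraries, which did not overlap. Transferred libraries 1 to 4 held 580.5, 589.5, 653 and 756, all above the control libraries, while library 5 held 281, inside the control range. The log2 fold change was 0.99 between non-transferred and control colon (standard error 0.34, adjusted p = 0.0304, limma), and this call was lost without control library 2 or 3 or non-transferred library 1 or 3 (adjusted p = 0.116, 0.0862, 0.0924 and 0.0622, limma). It was -0.13 between transferred and non-transferred colon (95% interval -0.79 to 0.53; adjusted p = 0.771, limma) and 0.86 between transferred and control colon (adjusted p = 0.157, limma). Without transferred library 5 the last difference was 1.10 and passed (adjusted p = 0.0251, limma). Library 5 also had the highest mean log2 value of colonocyte markers among all libraries, 13.51, and transferred libraries 1, 3 and 4, with high Nr5a2, had 12.15 to 12.30. Transferred library 2 went against this, with markers at 12.89, inside the control range, and Nr5a2 at 589.5, inside the range of non-transferred colon. The part of colonocyte content in this spread was not tested.

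**Figure D3:**
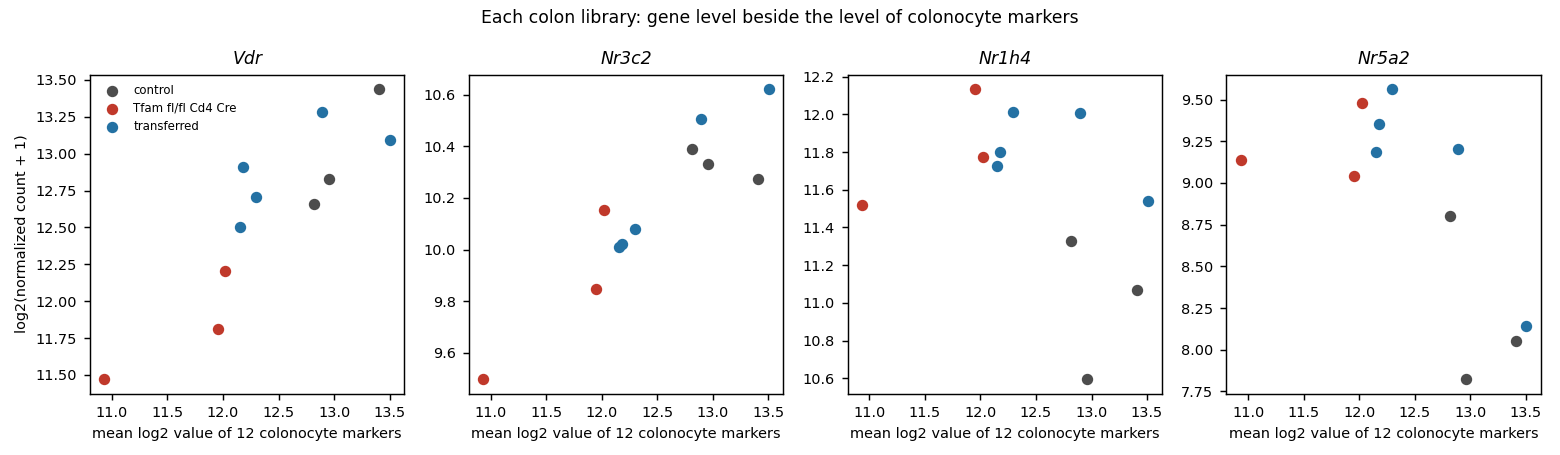
Log2(normalized count + 1) of Vdr, Nr3c2, Nr1h4 and Nr5a2 in each library against the library's mean log2 value of 12 colonocyte markers. Vdr and Nr3c2 are lowest in non-transferred library 3, where the markers are at 10.93, and Nr5a2 is low in the control libraries and in transferred library 5, where they are at 12.82 to 13.51, but high in transferred library 2, where they are at 12.89.

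Listed LRH-1 targets and genes of gut steroid synthesis numbered 15, of which 9 were among the genes of the table and 7 were tested. In non-transferred colon 2 were higher and 1 lower than in control, with a median log2 fold change of 0.92. Both of the higher genes are cyclins of the cell cycle: Ccnd1 rose by 1.97 (adjusted p = 5.85e-05, limma) and Ccne1 by 1.00 (adjusted p = 0.00248, limma), and Prox1, a homeobox factor, fell by 1.14 (adjusted p = 0.00932, limma). Ccnd1 fell by 1.32 after transfer (adjusted p = 0.000804, limma), whereas Nr5a2 did not pass the test between these groups. Cyp11a1, the enzyme that opens steroid synthesis, averaged 1.10, 7.40 and 2.80 normalized counts in control, non-transferred and transferred colon and was not tested. Cyp11b1 was not among the genes of the table.

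Nr3c2, the mineralocorticoid receptor gene (chr8:77625576-77971863, plus strand), had 1339, 1289 and 1238 normalized counts in control libraries and 1139, 722 and 921 in non-transferred libraries. These groups did not overlap, and the difference missed the threshold (log2 fold change -0.50, standard error 0.19, adjusted p = 0.0532, limma). Transferred libraries held 1029.6, 1453, 1039, 1082 and 1576, which spanned the other groups in part (log2 fold change 0.41 against non-transferred, adjusted p = 0.0882, and -0.08 against control, adjusted p = 0.821, limma). Across alternatives the first difference was called in 7 of 24, among them DESeq2 (adjusted p = 0.0468) and TMM scaling (adjusted p = 0.0478, limma), so it lies at the threshold.

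Hsd11b2, which guards that receptor from glucocorticoid (chr8:106245369-106250620, plus strand), had 3712, 3346 and 4075 normalized counts in control libraries. Non-transferred libraries 1 and 3 held 5679.9 and 5698, above all other libraries, but non-transferred library 4 held 3295, below all of them. Transferred libraries lay between 3435 and 4177, within a range like that of control. The log2 fold change of 0.36 between non-transferred and control colon did not pass (adjusted p = 0.133, limma), nor did -0.35 after transfer (adjusted p = 0.122, limma), and both passed without non-transferred library 4 (0.62, adjusted p = 0.00261, and -0.62, adjusted p = 0.00451, limma). The log2 ratio of Hsd11b2 to Nr3c2 within a library does not depend on its scaling. It was 1.47, 1.38 and 1.72 in control, 2.32, 2.98 and 1.84 in non-transferred, and 1.74, 1.30, 1.79, 1.82 and 1.41 in transferred libraries. Every non-transferred library thus had more Hsd11b2 per Nr3c2 than any other library. The difference was 0.86 between non-transferred and control colon (two-sided exact permutation test p = 0.1, the smallest that 3 against 3 libraries can give; adjusted p = 0.45 over 9 tests) and -0.77 between transferred and non-transferred colon (exact p = 0.0357, the smallest possible there; adjusted p = 0.321). Neither passed after adjustment, and with so few libraries none of the 9 tests could, so this outcome decides nothing.

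Of 17 listed genes of mineralocorticoid and glucocorticoid action, with Nr3c2 among them, 16 were tested, 2 were higher and 4 lower in non-transferred than in control colon, against 22.7% and 22.9% of all genes, and the median log2 fold change was -0.08. These shares are near or below those of all genes. Scnn1b, the beta subunit of the epithelial sodium channel, rose by 1.71 (adjusted p = 0.023, limma), and Scnn1g, its gamma subunit, had a log2 fold change of 2.23 that did not pass (adjusted p = 0.128, limma). Sgk1, the kinase that keeps the channel at the membrane, fell by 1.65 (adjusted p = 0.0347, limma), and Nedd4l, the ligase that removes it, fell by 0.60 (adjusted p = 0.018, limma). Zbtb16 and Chp2, which corticosteroids induce, fell by 2.11 and 2.13 (adjusted p = 0.00204 and 0.0185, limma). H6pd, which supplies the cofactor of glucocorticoid activation, rose by 1.32 (adjusted p = 0.00129, limma), while Hsd11b1, the activating enzyme, had a log2 fold change of 0.33 (adjusted p = 0.289, limma). The glucocorticoid receptor gene Nr3c1 had 1427 ± 74.9 normalized counts in control and 1417 ± 183 in non-transferred colon (SD, n = 3 each; log2 fold change -0.02, adjusted p = 0.909, limma).

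Nr1i2, the PXR gene (chr16:38068685-38115216, minus strand), showed no difference past the test while 7 of the 9 tested genes listed as its targets were lower in non-transferred colon. Its libraries held 1565, 1638 and 1704 normalized counts in control, 1447, 1161 and 1581 in non-transferred, and 1347, 1767, 1530.1, 1613 and 2062 in transferred colon, and all groups overlapped. The log2 fold change was -0.24 between non-transferred and control colon (95% interval -0.57 to 0.09; adjusted p = 0.223, limma), 0.25 after transfer (adjusted p = 0.185, limma) and 0.01 between transferred and control colon. With libraries scaled to epithelial markers the first and second of these passed (-0.34 and 0.33, adjusted p = 0.031 and 0.0336, limma). Of 14 listed PXR targets 9 were tested, and none of these was higher in non-transferred colon (median log2 fold change -2.02). After transfer 6 of the 9 were higher and 0 lower (median 1.89), against 17% and 14.2% of all genes. Cyp2c55, a cytochrome P450 that is also on the colonocyte list, fell by 5.29 (adjusted p = 0.00107, limma). Gstm1 (glutathione conjugation), Aldh1a1 (aldehyde oxidation) and Ugt1a1 (glucuronidation) fell by 1.09, 1.65 and 2.02 (adjusted p = 0.00053, 0.000562 and 0.00086, limma). Cyp3a13 fell by 1.36 (adjusted p = 0.00922, limma), and Cyp3a11, the classic PXR target of liver, averaged at most 7.38 normalized counts in any group and was not tested. The colonocyte markers fell in the same libraries, and their part in the fall of this list was not tested.

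**Figure D4:**
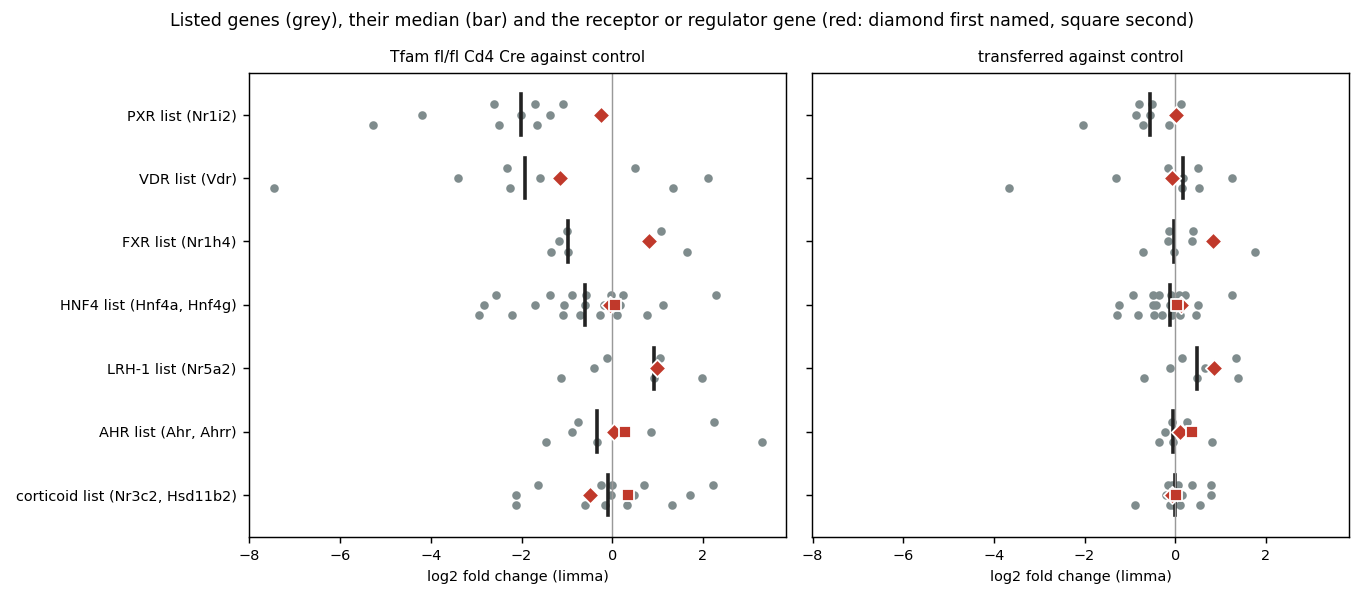
Log2 fold change (x axis, limma) of the tested genes of 7 target lists (grey points), the list median (bar) and the gene of the receptor or regulator (red), for non-transferred and for transferred colon against control. The PXR list has a median of -2.02 in the left panel while Nr1i2 lies at -0.24, and in the right panel Nr1h4 and Nr5a2 lie at 0.82 and 0.86.

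Hnf4a (chr2:163348728-163414830, plus strand) ranged from 11801 to 17713 normalized counts in control, from 13166 to 14343 in non-transferred and from 14219 to 19623 in transferred libraries. Its log2 fold change between non-transferred and control colon was -0.05 with a 95% interval from -0.40 to 0.31 (adjusted p = 0.837, limma), and 0.18 after transfer (adjusted p = 0.373, limma), which passed with quantile normalization (0.34, adjusted p = 0.030, limma). Hnf4g (chr3:3573084-3724860, plus strand), at 294 to 523, 288 to 634 and 261 to 510.3 normalized counts in the same order, had a log2 fold change of 0.07 with the wider interval of -0.61 to 0.75. The ratio of Hnf4a to Hnf4g within a library differed by -0.11, 0.21 and 0.10 in log2 in the 3 comparisons (exact p = 1, 0.536 and 0.857). With so few libraries no ratio could pass after adjustment, so these tests decide nothing. Genes listed as HNF4 targets were lower in 10 and higher in 1 of 21 tested in non-transferred colon (median log2 fold change -0.61). After transfer 8 of the 21 were higher and 0 lower, against 17% and 14.2% of all genes. The genes named next are of those lower in non-transferred colon. Among the lower were Maob (monoamine oxidase), Acaa2 (fatty acid oxidation) and Fabp2 (fatty acid binding), by 2.94, 1.36 and 2.82 on the log2 scale (adjusted p = 4.32e-05, 0.000167 and 0.000255, limma). Each of these was higher in transferred than in non-transferred colon, by 2.01, 1.00 and 1.54 (adjusted p = 0.000566, 0.0012 and 0.00841, limma). Mature colonocyte markers fell in the same non-transferred libraries, and their part in the fall of this list was not tested.

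Ahr (chr12:35547973-35585057, minus strand) was the least variable of the 10 genes, with 175 to 215 normalized counts in control, 171 to 231 in non-transferred and 175 to 244 in transferred libraries, and its highest library was 1.43 times its lowest. The log2 fold change was 0.04 between non-transferred and control colon (95% interval -0.30 to 0.39; adjusted p = 0.840, limma). Ahrr (chr13:74359237-74440462, minus strand), its competitor, rested on 16 to 34 reads a library, with 16.9 to 23.5 normalized counts in control, 18.6 to 30.7 in non-transferred and 21.0 to 37.2 in transferred colon. At this depth the 95% interval of its log2 fold change between non-transferred and control colon was wide, from -0.35 to 0.94. The Ahr to Ahrr ratio differed by -0.25, -0.01 and -0.26 in log2 in the 3 comparisons (exact p = 0.6, 0.929 and 0.321).

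Partners and readouts of AHR were listed as well. Of the 7 genes of the AHR complex 1 was higher and 1 lower in non-transferred than in control colon. These counts do not exceed the shares of 22.7% and 22.9% over all genes. Ptges3, the p23 cochaperone, rose by 0.46 (adjusted p = 0.00929, limma), and the DNA-binding partner Arnt had a log2 fold change of -0.09 (adjusted p = 0.522, limma). Listed AHR targets split evenly, 3 higher and 3 lower of 7 tested. Tiparp, the ADP-ribosyltransferase that AHR induces and that represses it, had 292 ± 33.5 normalized counts in control, 525 ± 15.6 in non-transferred (SD, n = 3 each) and 351 ± 21.8 in transferred colon (n = 5), a rise of 0.85 and a log2 fold change of -0.58 after transfer (adjusted p = 0.000151 and 0.00163, limma). Neutrophil and macrophage markers rose in the same libraries, and their part in the rise of Tiparp was not tested. Cyp1b1, which is also expressed in stroma, rose by 2.24 from a low level, 5.94 ± 4.44 to 36.3 ± 26.7 normalized counts with overlapping groups (adjusted p = 0.0394, limma). Nqo1, Lpar1 and Ugt1a6a fell by 0.88, 0.75 and 1.45 (adjusted p = 0.00283, 0.00249 and 0.00967, limma). Ugt1a6a shares exons with Ugt1a1 and other genes of its locus, so its counts are uncertain. Cyp1a1, the readout of AHR that is most used, averaged 4.54, 0.653 and 2.73 normalized counts in control, non-transferred and transferred colon and was not tested.

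Within the superfamily most of the genes that passed the test fell. Of 49 listed members of the nuclear receptor superfamily, 7 of them among the 10 genes, 39 were tested: 13 were lower and 2 higher in non-transferred than in control colon. Their median log2 fold change was -0.30, and the 2 higher genes were Nr1h4 and Nr5a2. Thra, Esrrg and Rarb, the genes of thyroid hormone receptor alpha, an estrogen-related receptor and retinoic acid receptor beta, were among those with the smallest adjusted p and fell by 1.58, 3.24 and 2.58 (adjusted p = 1.98e-05, 0.000422 and 0.00144, limma). After transfer 7 of the 39 were higher, close to the 17% of all genes, and none lower, against 14.2% of all genes, and between transferred and control colon Nr1h4 was the single one called. Smooth muscle, neuron and fat cell markers fell in the same libraries, and their part in the fall of these receptors was not tested. Rxra, the shared partner of PXR, FXR and VDR, had 3816 ± 669 normalized counts in control and 2604 ± 243 in non-transferred colon (SD, n = 3 each), a fall of 0.54 (adjusted p = 0.0246, limma), and after transfer its log2 fold change was 0.17 (adjusted p = 0.443, limma). Of 19 tested partners and coregulators 3 were higher, Med1 and Ncoa3 (0.54 and 0.53, adjusted p = 0.00172 and 0.00912, limma) among them, and 2 were lower, Ppargc1a and Rxra, below the shares of 22.7% and 22.9% over all genes.
In the bHLH-PAS family of Ahr and Ahrr, 3 of 15 were higher and 3 lower, close to the 22.7% and 22.9% of all genes. Among them Hif1a, the hypoxia factor gene, rose by 2.42, and Npas4, Npas2 and Bmal1, of neurons and the clock, fell by 3.54, 1.27 and 0.68 (adjusted p = 0.000144, 5.09e-05, 0.000241 and 0.00571, limma). The rise of Hif1a went with that of the neutrophil and macrophage markers, whose part was not tested.

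The genes with values most like each of the 10 were sought among 13385 genes with a mean of at least 50, as the smallest root mean square difference of centred log2 values over the 11 libraries. Vdr was followed most closely by Sdr42e1 (0.11) and Abhd6 (0.14), against a spread of Vdr itself of 0.57. Nr1i2 was followed by Gucy2c, the gene of the guanylin receptor, and Dennd2b (both 0.05, own spread 0.20), and Nr3c2 by Slc4a4, a bicarbonate cotransporter gene, and Vwa8 (both 0.12, own spread 0.30). The nearest to Nr1h4 were Pof1b and Shisa5 at 0.22 each, against an own spread of 0.43. For Nr5a2 they were Cd200l1 (0.17) and Kcnn4, a potassium channel gene (0.20), with an own spread of 0.58. Hsd11b2 stood nearest to Adal and Zfp318 (both 0.13, own spread 0.27), and Hnf4a to Ddt (0.08) and Mfhas1 (0.09, own spread 0.19). Hnf4g stood nearest to Gm10167 (0.20) and Dpp4 (0.24, own spread 0.38). The nearest to Ahr was 2810025M15Rik (0.07, own spread 0.16), and Ahrr stood nearest to Suox (0.18) and E2f3 (0.19, own spread 0.31). A small spread of a gene, as in Ahr and Hnf4a, makes such a distance small in itself.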

How the data were processed

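Colon RNA was measured in 3 control, 3 non-transferred and 5 transferred libraries. Per the submitters' processing notes the reads, of stranded mRNA, were handled with HISAT2 (2.2.1), SAMtools (1.13), HTSeq (1.99.2) and DESeq2 (1.40.2) on GRCm39, and the study's methods name HISAT2 or STAR for the alignment. Neither the gene annotation's release nor HTSeq's use of strand is known, which makes counts of overlapping genes uncertain. The authors deposited a signal table of normalized counts, in which 1 factor scales each library, so that shifts in tissue makeup remain. Values of a library were multiples of 1 step (tolerance 0.05, 100% of values), and the reads were recovered from it, with 0.913 to 1.10 normalized counts per read. Low values, such as those of Ahrr, rest on few reads and carry a large counting error.

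Names, coordinates and exon lengths came from a GENCODE annotation of GRCm39 that held 99.2% of the identifiers. Differences were tested with limma (3.58.1, in R 4.3.3), with a variance trend, on log2(normalized count + 1) in a joint fit of the 3 groups; p-values were adjusted after Benjamini and Hochberg over the 16781 genes. The procedure was tested on simulated data. Fold changes understate those of low genes because of the pseudocount. Ratios were compared with two-sided exact permutation tests, adjusted over 9 tests. With so few libraries none of these could pass after adjustment. As alternatives, the pseudocount was 0.5 or 10, the filter was dropped or raised to 50, values were normalized by quantiles, TMM or epithelial markers, the recovered reads were given to edgeR (4.0.16) and DESeq2 (1.42.0), 2 groups were fitted alone, the trend was dropped, a replicate block was added, the study's threshold was applied, and each library was left out. Scaling to colonocyte markers was added after the data were seen. The genes and lists were chosen with earlier results of these data known. Named were all 10 genes, up to 4 genes of each described list with the smallest adjusted p between non-transferred and control colon, a set of direct readouts (such as Cyp1a1, Fgf15 and Cyp24a1) and the 2 genes most like each member. A few genes that this rule names are not reported here. The position genes and cell type lists are given as context.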

Additional observations from a re-analysis of the deposited data

Results flagged for a closer look

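Transferred library 5 stood apart from the other 4 transferred libraries in 2 of the 13 sets of values examined by Dixon's gap test, which chance alone would do in about 1 of 20 such groups. It had 37.2 normalized counts of Ahrr, where the others had 21.0 to 24.6, and 19623 of Hnf4a, where the others had 14219 to 15019. The same library had 281 normalized counts of Nr5a2, the lowest of its group, and a mean log2 value of 13.51 for the colonocyte markers, the highest of all libraries.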

How the results depend on the processing

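The 24 alternatives include fits that left out a library of the group not compared. Such fits keep the fold change and alter only the shared spread and the adjustment, so they test a call weakly. Nr1h4 was called higher in non-transferred than in control colon in all 24. Vdr was called in 23 in each of its called comparisons, all but the scaling to colonocyte markers. That scaling put the median of all genes at 1.44, -0.99 and 0.45 in the 3 comparisons. Relative to that median Vdr was at -1.16 and 1.09 in the first pair. These relative values are the same without the scaling, since it shifts all genes of a library alike. Against control the scaling called 8 members higher and 0 lower in non-transferred colon, and after transfer 0 higher and 3 lower. Signs turned under it between non-transferred and control colon for Nr1i2 (1.19), Vdr (0.28), Hnf4a (1.38) and Nr3c2 (0.93), after transfer for Nr1i2 (-0.72), Nr1h4 (-0.96), Ahr (-0.91), Ahrr (-0.90), Hnf4a (-0.79) and Nr3c2 (-0.56), and between transferred and control colon for Vdr (0.38) and Nr3c2 (0.37). Scaling to epithelial markers put the median of all genes at -0.09, 0.06 and -0.03 in the 3 comparisons. It called 1 member higher and 3 lower between non-transferred and control colon, 3 higher after transfer and 0 between transferred and control colon. Nr5a2 was lost in the first of these (log2 fold change 0.89 against 0.99, adjusted p = 0.109, limma). Signs turned under this scaling for Ahr (-0.060) and Hnf4g (-0.038) in the first comparison, Hnf4g (0.051) in the second, and Nr1i2 (-0.013) and Hsd11b2 (-0.020) in the third.

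Members called lower between non-transferred and control colon numbered 2 with quantile normalization, TMM scaling, DESeq2 and only the 2 groups compared, the added one being Nr3c2. With quantile normalization 2 were called higher after transfer, and signs turned for Ahrr (-0.14) and Hnf4g (0.0013) after transfer and for Vdr (0.0057) between transferred and control colon. The call of Nr1h4 between transferred and control colon was lost, leaving 0, with a pseudocount of 10, edgeR, only the 2 groups compared and no variance trend, and 2 were called with the study's threshold. DESeq2 turned Hsd11b2 between transferred and control colon (-0.0054), and a pseudocount of 10 the Ahr to Ahrr ratio after transfer (0.0070). The cause of these changes was not tested.

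Replicate numbers were not taken to pair the samples, and the labels do not say whether equal numbers share a source. The correlation of same-numbered deviations was 0.05 and 0.06 between non-transferred and control colon and -0.03 to 0.10 after transfer. Between transferred and control colon it was 0.39, 0.27 and -0.10, so shared structure there is not settled. With the replicate block 2 members were called between transferred and control colon, Nr1h4 and Nr5a2 (adjusted p = 0.0384 and 0.0252, limma), and calls over all genes there rose from 192 higher and 76 lower to 617 and 313. Under the block signs turned for Hnf4g (-0.089 and -0.19 against control in non-transferred and transferred colon), Ahrr and Nr5a2 after transfer (-0.0093 and 0.20) and Nr1i2 between transferred and control colon (-0.11), and it changed no other call of the 10 genes.

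Leaving out 1 library at a time gave 1 to 3 members called higher and 1 to 2 lower between non-transferred and control colon, 1 to 2 higher and 0 to 1 lower after transfer, and 0 to 2 higher between transferred and control colon. Values whose sign turned in some of these fits ran, between non-transferred and control colon, from -0.066 to 0.15 (Ahr), -0.18 to 0.11 (Hnf4a), -0.26 to 0.31 (Hnf4g), -0.53 to 0.037 (Ahr to Ahrr ratio) and -0.47 to 0.24 (Hnf4a to Hnf4g ratio). After transfer they ran from -0.042 to 0.17 (Ahr), -0.094 to 0.25 (Ahrr), -0.27 to 0.30 (Hnf4g), -0.14 to 0.17 (Nr1h4), -0.25 to 0.11 (Nr5a2), -0.29 to 0.27 (Ahr to Ahrr ratio) and -0.086 to 0.42 (Hnf4a to Hnf4g ratio). Between transferred and control colon they ran from -0.15 to 0.26 (Hnf4g), -0.068 to 0.074 (Hsd11b2), -0.070 to 0.083 (Nr1i2), -0.23 to 0.16 (Vdr) and -0.26 to 0.45 (Hnf4a to Hnf4g ratio). None of these was called. The Hsd11b2 to Nr3c2 ratio after transfer stayed between -1.04 and -0.47, where the smallest exact p that fewer libraries allow is above 0.05. Counts over all genes between transferred and control colon moved most, from 192 higher and 76 lower to 11 and 0 without control library 2 and to 542 and 289 without transferred library 5.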
